A study of Arabidopsis thaliana with 14 samples.

Results

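The fve mutant of Arabidopsis thaliana was compared with its Col-0 wild type as whole seedlings. The rule took both fve libraries and the Col-0 pair that the labels assign to fve and suvh2/9, so 4 of the 14 libraries of the series, with all 32548 gene rows of their table, of which 19090 passed a filter on low values and were tested. Col-0 is labelled wild type and fve is labelled fve(-/-), with no allele name in the labels. Both were plate-grown on MS medium for 11 days, in 16 h of light at 23 °C and 8 h of dark at 21 °C, and RNA came from 1 g of seedlings. suvh2/9, a mutant homozygous for suvh2 and suvh9, is the third group of the same table and entered the estimate of the spread. The triple mutant pdp1/2/3, with rrm1 and pdp1/2/3;rrm1, lies in a second table with another Col-0 pair, replicates 3 and 4. Each group had 2 libraries, and whether these were separate cultures is not in the labels, which is why p-values here cover no more than the spread between the libraries at hand.

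FVE, also called MSI4, is a WD-repeat protein that binds histones and works with histone deacetylases. It belongs to the autonomous flowering pathway, whose members keep the floral repressor FLC low and so let the plant flower without a cold period. FLC is a MADS-box protein that represses FT, the mobile flowering signal, and SOC1, a MADS-box promoter of flowering. FVE has also been tied to cold-regulated genes and, in the title of this series, to RNA-directed DNA methylation, in which RNA polymerase V transcripts guide methylation to repeats and transposons.

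Levels are given in CPM, the deposited adjusted counts per 1e+06 of the mean library total of the table. The totals of the 6 libraries of the table lay between 21259805 and 21722950, so 1 count was worth 0.0465 CPM and a level of up to 0.140 CPM could go unseen in a library. These limits cover counting error only. A difference is that of log2(CPM + 1), fve minus Col-0, which understates the change of genes near or below 1 CPM. A gene is called at an adjusted p below 0.05 (limma over all genes tested, Benjamini-Hochberg adjustment, two-sided). Across genes, Pearson's r between replicates was 0.996 in Col-0 and 0.996 in fve, and 0.993 between each Col-0 and each fve library. Of 23 photosynthesis genes, markers of green tissue, the summed level was 117074 and 122191 CPM in Col-0 and 122710 and 120825 in fve. The 16 seed storage and embryo genes summed to 2.80 and 2.91 CPM in Col-0 and to 3.57 and 4.71 in fve, with 10 of the 16 under 0.140 CPM in every one of these libraries.

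The FVE transcript (AT2G19520, chromosome 2, 8455756 to 8459642 in TAIR10.1) stood at 65.8 and 67.2 CPM in Col-0 and at 15.1 and 15.5 in fve. It was therefore present in the mutant at 23.0% of the wild-type level, and the libraries matched their labels (log2 difference -2.05, SE 0.0677, adjusted p = 4.75e-08). In suvh2/9 it stood at 63.1 and 69.3 CPM.

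In fve seedlings 361 genes changed, 214 higher and 147 lower, out of 19090 tested. That is 1.89% of the genes, 1.12% higher and 0.77% lower. Counts for the lists and classes below are to be read beside these shares. The genes that rose had a median of 4.02 CPM in Col-0 and 8.09 CPM in fve, and those that fell 30.6 and 20.6 CPM. Part of this contrast is set by the filter, since a gene below 1 CPM in both Col-0 libraries entered the tests only through fve or suvh2/9: 38 of the higher genes and 0 of the lower genes lay below 1 CPM in the Col-0 mean. Of the 214 higher genes 100 were at least 2-fold apart in CPM, and of the 147 lower genes 16. By the mean over Col-0 and fve, 2.27% of genes between 1 and 5 CPM rose and 0.391% fell, while above 125 CPM 0.710% rose and 1.66% fell. Both fve libraries lay on one side of both Col-0 libraries for all 361 genes, as they also did for 22.2% (above) and 24.6% (below) of all genes tested.
Leaving out a library ended many calls. With the filter applied anew each time, 29 of the 361 calls (28 higher, 1 lower), FLC among them, fell below it without at least 1 Col-0 or fve library and were then not fitted. Of the 332 fitted each time, 67 were called each time, 44 higher and 23 lower. The fits were therefore repeated with the 19090 tested genes held, an alternative added after the data were seen. Then 83 of the 361 were called without each Col-0 and each fve library in turn, 60 higher and 23 lower, and the sign stayed the same for all 361 without each of the 6 libraries. The library left alone in its group is assumed in these fits to vary like the other groups. In what follows a call was kept when it passed without each of the 6 libraries, with the genes held where the filter had dropped it. The held set was chosen with the left-out library included. For genes that passed the filter only through fve, being kept with the genes held is thus a looser criterion and no independent support. With the filter applied anew the calls numbered 110 when Col-0 replicate 1 was left out, 134 when Col-0 replicate 2 was, and 100 or 101 when fve replicate 1 or 2 was; with the genes held the last 2 numbers were 129 and 122. Without suvh2/9 replicate 1 or 2 they numbered 662 or 666, and with Col-0 and fve alone in the fit 659. With no filter on low values 125 genes were called, 97 higher and 28 lower, 105 of them among the 361, and with no mean-variance trend 213, of which 179 were among the 361.

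**Figure D1:**
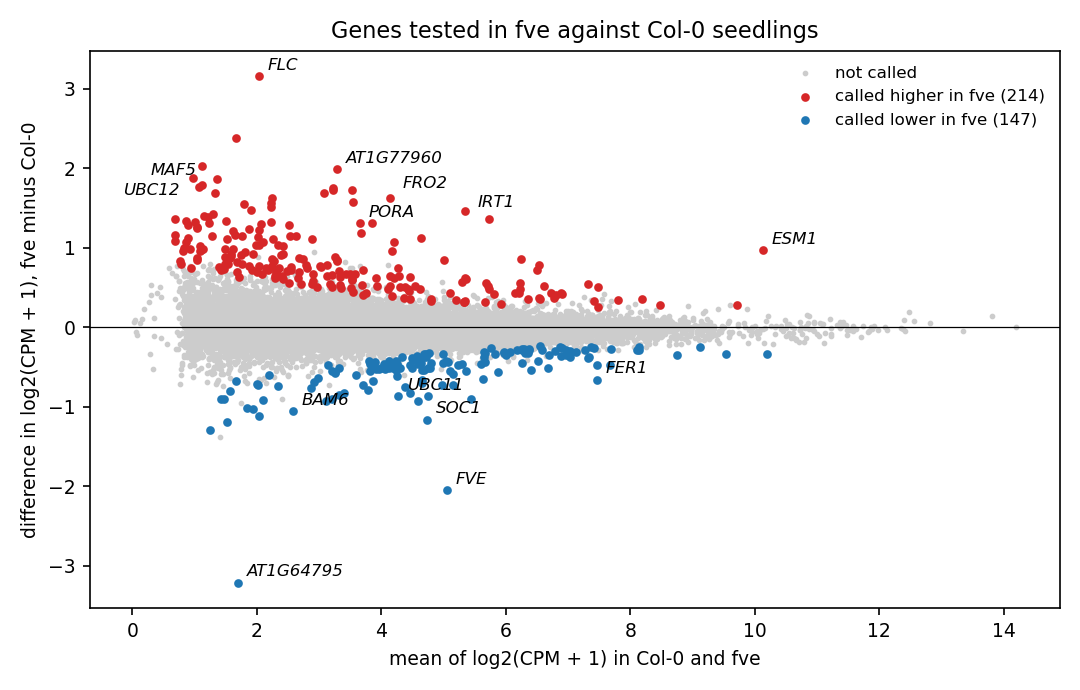
Each point is 1 of the 19090 genes tested, with the mean of log2(CPM + 1) over Col-0 and fve on the x axis and the difference in log2(CPM + 1), fve minus Col-0, on the y axis. Red points are the 214 genes called higher in fve and blue points the 147 called lower; FLC stands highest at 3.16 and AT1G64795 lowest at -3.21.

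Among the regulators of flowering, the repressors FLC, MAF4 and MAF5 rose and the promoter SOC1 fell. FLC (AT5G10140, chromosome 5, 3173382 to 3179448, minus strand) stood at 0.320 and 0.422 CPM in Col-0 and at 11.1 and 11.4 in fve, a 30.3-fold higher mean (log2 difference 3.16, SE 0.139, adjusted p = 6.02e-07). MAF5 (AT5G65080) stood at 0.459 and 0.235 CPM in Col-0 and at 4.13 and 3.65 in fve (log2 1.86, SE 0.172, adjusted p = 0.000212). Its neighbour MAF4 (AT5G65070) stood at 0.964 and 0.610 CPM in Col-0 and at 3.85 and 3.18 in fve (log2 1.34, SE 0.162, adjusted p = 0.00127). All 3 were nearly silent in the wild type, and the groups did not overlap.
The other members of the clade, also MADS-box repressors of flowering, were well expressed in both genotypes and were not called. FLM stood at 25.4 and 23.1 CPM in Col-0 and 24.7 and 27.3 in fve, MAF2 at 27.7 and 28.4 against 25.1 and 26.7, and MAF3 at 10.6 and 10.2 against 8.67 and 10.1. So 3 of the 6 genes of the clade rose and 0 fell, with a median log2 difference of 0.72 beside -0.01 over all genes tested. FLC, MAF4 and MAF5 were dropped by the filter without either fve library. With the genes held their calls were kept, but these genes passed the filter only through fve, so this is no independent support.

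The windows of 250 bases before the annotated starts of the clade members that rose are shown, read from RefSeq TAIR10.1. The reason is that MAF4 and MAF5, which lie in tandem and rose together, share an exact run there that the FLC window does not hold. Capitals mark, in FLC, the CACGTG motif (the core of the G-box, its own reverse complement, found in 7.37% of 19089 such windows of tested genes) and, in MAF4 and MAF5, the longest run that these windows share, of 20 bases.
FLC, chr5:3179449-3179698, minus strand: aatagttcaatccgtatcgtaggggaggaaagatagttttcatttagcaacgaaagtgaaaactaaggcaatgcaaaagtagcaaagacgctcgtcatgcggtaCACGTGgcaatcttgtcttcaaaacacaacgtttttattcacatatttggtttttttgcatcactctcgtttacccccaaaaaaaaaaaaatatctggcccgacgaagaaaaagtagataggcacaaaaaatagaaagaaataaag
MAF4, chr5:25991943-25992192, plus strand: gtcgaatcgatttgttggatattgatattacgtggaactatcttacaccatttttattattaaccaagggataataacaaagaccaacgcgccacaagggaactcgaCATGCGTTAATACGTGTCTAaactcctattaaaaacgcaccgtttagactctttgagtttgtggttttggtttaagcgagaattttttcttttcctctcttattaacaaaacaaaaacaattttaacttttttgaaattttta
MAF5, chr5:25997254-25997503, plus strand: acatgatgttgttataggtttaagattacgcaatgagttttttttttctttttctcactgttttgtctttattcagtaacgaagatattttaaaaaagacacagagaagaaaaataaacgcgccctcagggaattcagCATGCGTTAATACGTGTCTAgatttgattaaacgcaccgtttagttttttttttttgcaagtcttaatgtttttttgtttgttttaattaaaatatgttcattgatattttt
The run starts 143 bases before the start of MAF4 and 112 bases before that of MAF5, and it was found in 2 of the 19089 windows, those of these genes. The longest exact run that FLC shares with MAF4 is 8 bases and with MAF5 10 bases. Stretches alike but for a changed or missing base were not sought. FLC also reads catgcg shortly before its marked motif, which holds acgtg, and the run of MAF4 and MAF5 holds both of these too. How many windows hold these short stretches was not worked out. CACGTG was found in 6.07% of the windows of genes that rose and 4.08% of those that fell, beside 7.37% of all. Sharing sequence is not limited to the members that rose: FLM and MAF2, which were not called, share a run of 35 bases. The annotation places AT5G01675 on the plus strand over the whole of FLC and its window. Its level was at most 0.0462 CPM in these libraries, and whether reads were assigned by strand is not given in the sources used here.

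SOC1 (AT2G45660), one of the integrators that set the onset of flowering, stood at 35.3 and 42.2 CPM in Col-0 and at 14.1 and 19.8 in fve. Its mean in fve was 43.8% of the wild type (log2 -1.16, SE 0.133, adjusted p = 0.000902; 0.0679 with no filter on low values). FT stood at 0.642 and 0.516 CPM in Col-0 and at 0 and 0.0925 in fve. It was below the filter, and without a filter its adjusted p was 0.151 (limma). Of the 19 floral promoters on the list 8 were tested and 1, SOC1, fell, with a median of 0.01; FUL, another MADS-box promoter of flowering, was at 1.24 and 1.27 CPM in Col-0 and 0.649 and 0.554 in fve and was not called (adjusted p = 0.17).
Of 12 tested floral repressors outside the FLC clade, 1 fell, namely ATC, a relative of TERMINAL FLOWER 1. It stood at 15.03 and 16.5 CPM in Col-0 and at 9.56 and 8.68 in fve (log2 -0.73, adjusted p = 0.002, up to 0.0467 without a library). MFT, another member of the family of FT and ATC and known from seed germination, fell from 15.9 and 14.4 to 10.3 and 11.8 CPM (adjusted p = 0.0458), a call lost without any 1 of the 4 Col-0 and fve libraries. MFT was chosen after its values were seen. Of that family of 6 genes 2 were tested, ATC and MFT.
SEP3, a floral organ MADS-box gene and the 1 of 4 tested Polycomb targets that changed, fell from 3.03 and 2.30 to 1.21 and 0.738 CPM (adjusted p = 0.0353, lost without any 1 of the 4). Over all genes tested 1.12% rose and 0.77% fell. Counting by the annotation's product text, 5 of 29 tested MADS-box genes rose and 2 fell. Beside the clade these were AGL14 (2.29 and 2.02 to 4.13 and 4.06 CPM, adjusted p = 0.0202) and AGL62 (1.101 and 0.938 to 2.55 and 2.31, adjusted p = 0.0274), both chosen after their values were seen and both lost without any 1 of the 4 libraries.

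**Figure D2:**
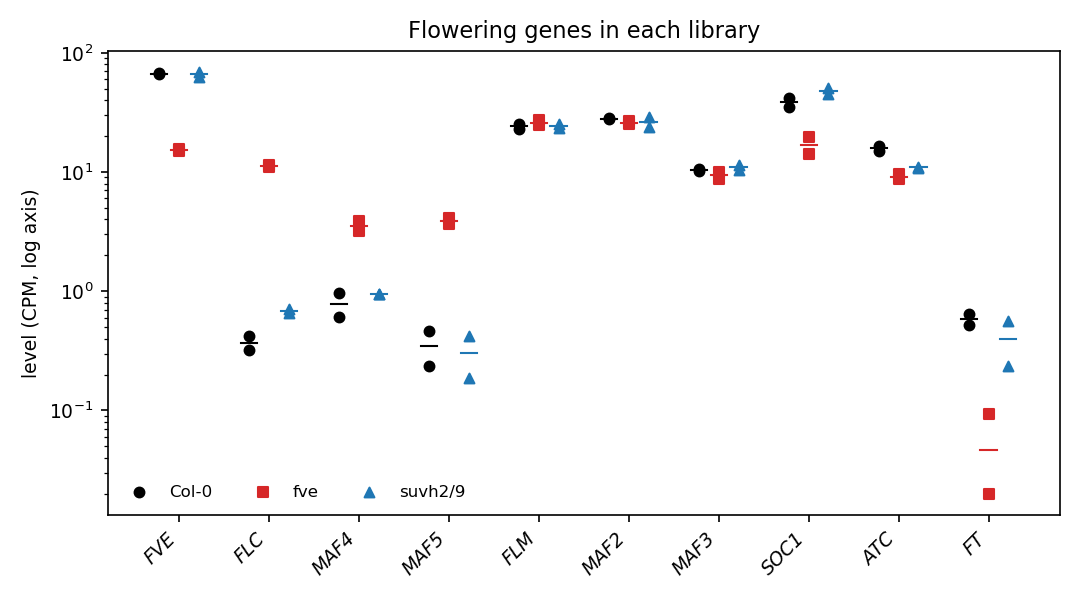
Levels in CPM on a log axis of 10 flowering genes in each library of Col-0 (circles), fve (squares) and suvh2/9 (triangles), with a line at each group's mean. FLC, MAF4, MAF5, FVE, SOC1 and ATC are apart in fve and Col-0, while FLM, MAF2 and MAF3 are not called; the fve library in which FT was at 0 is drawn at 0.02 CPM.

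Of the genes that act upstream of FLC, FVE alone was called in the lists that follow. In the autonomous pathway FVE itself was the 1 of 8 genes that changed, and the other 7, among them FCA, FPA and FLD, were not called. limma called 0 of 10 MSI relatives and deacetylase partners, with 2 higher by unadjusted p (below 0.05). It called 0 of 12 FLC activators, with 0 at that p in either direction, and 0 of 12 tested genes of Polycomb Repressive Complex 2 and its partners, with 1 higher. The share of all genes at an unadjusted p below 0.05 was 7.02% higher and 6.99% lower. HDA6, a histone deacetylase that FVE is known to bind, stood at 24.6 and 27.1 CPM in Col-0 and at 29.5 and 28.5 in fve. MSI5, the nearest relative of FVE, stood at 7.88 and 9.89 against 10.3 and 10.1.

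No gene of the lists of the DNA methylation machinery was called. limma called 0 of 25 tested genes of RNA-directed DNA methylation, with 2 higher and 1 lower at an unadjusted p below 0.05, and the median was 0.02. It called 0 of 18 genes of methylation maintenance and demethylation, with 1 higher and 1 lower, and the median was -0.01. ROS1, a DNA demethylase gene known to lose expression when RNA-directed DNA methylation fails, stood at 60.9 and 60.0 CPM in Col-0 and at 45.8 and 46.7 in fve. The groups did not overlap, but ROS1 was not called (log2 -0.38, adjusted p = 0.0591) and was called with Col-0 and fve alone in the fit (0.00183). In suvh2/9 it stood at 4.23 and 5.27 CPM.
Of 6 genes known to be silenced by DNA methylation, 3 were tested and limma called 0, with 1 higher and 1 lower at an unadjusted p below 0.05. SDC, an F-box gene silenced through promoter repeats, stood at 0 and 0.0468 CPM in Col-0, 0.603 and 0.369 in fve, and 7.69 and 6.17 in suvh2/9 (fve against Col-0, adjusted p = 0.155, and 0.00921 on a scale with pseudocount 0.1). The imprinted gene FWA was at 0.371 and 0.277 CPM in fve and under 0.140 in both Col-0 libraries, and was below the filter. QQS, an orphan gene known for variable methylation, stood at 10.6 and 5.30 CPM in Col-0 and at 4.68 and 4.52 in fve, so that the Col-0 replicates lay further apart than the fve replicates lay from the lower of them (adjusted p = 0.247).

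Single genes of chromatin and transcription did change; all of this paragraph except NRPE3B and HIS1-3 were chosen after their values were seen. NRPE3B (AT2G15400), a minor form of a subunit of RNA polymerases II, IV and V, stood at 1.28 and 1.22 CPM in Col-0 and at 4.96 and 5.59 in fve (log2 1.48, adjusted p = 0.000269). Its near copy NRPB3 (AT2G15430) on the same chromosome stood at 16.9 and 16.7 against 17.3 and 17.7 and was not called; reads of such close copies may be assigned to either. HIS1-3, a stress-inducible linker histone H1, stood at 12.1 and 11.3 CPM in Col-0 and at 25.2 and 26.1 in fve (log2 1.07, adjusted p = 6.82e-05). MORC2, a MORC-type ATPase, rose from 3.03 and 2.72 to 7.56 and 7.66 CPM (adjusted p = 0.000902), and AT5G27650, annotated with Tudor and PWWP domains, from 32.9 and 30.8 to 50.3 and 48.6 (adjusted p = 0.00124). These 4 calls were kept without each library in turn.
Calls that were lost when a library was left out were those of MET2, a DNA methyltransferase gene (0.366 and 0.656 to 1.67 and 1.85 CPM), FDM2, a gene of the XH/XS domain family of RNA-directed DNA methylation (6.92 and 7.22 to 12.2 and 10.9), HTA4, a histone H2A (4.63 and 4.17 to 8.72 and 7.48), and SHL1, a reader of histone methylation and the one of these that fell (38.3 and 43.0 to 25.5 and 29.6). Their adjusted p were 0.014, 0.00894, 0.00777 and 0.00662 in the full fit and reached 0.15, 0.15, 0.137 and 0.118 without a library.

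Genes of root iron uptake were among the strongest rises. Plants take up iron through FRO2, the root surface ferric reductase, and IRT1, the root iron transporter, and they store it in ferritin; CYP82C4 makes an iron-mobilising coumarin. Of 14 tested iron-deficiency genes 4 rose (IRT1, FRO2, FRO3 and CYP82C4) and 1, the ferritin gene FER1, fell. Their median log2 difference was 0.44, and over all genes tested 1.12% rose and 0.77% fell. FRO2 stood at 13.0 and 5.68 CPM in Col-0 and at 25.6 and 32.2 in fve (log2 1.62, SE 0.245, adjusted p = 0.00502). IRT1 stood at 32.9 and 15.5 against 57.1 and 72.3 (log2 1.47, SE 0.236, adjusted p = 0.00752). CYP82C4 stood at 7.76 and 3.15 against 14.7 and 24.3 (log2 1.73, SE 0.292, adjusted p = 0.0103). In these 3 genes Col-0 replicate 1 was over 2-fold above replicate 2, yet both fve libraries lay above both. The calls of FRO2 and IRT1 were lost without fve replicate 2 (adjusted p = 0.0966 and 0.122), and that of CYP82C4 without fve replicate 2 or Col-0 replicate 2 (up to 0.152). All 3 calls were also lost with no filter on low values (adjusted p = 0.153 for FRO2, 0.169 for IRT1 and 0.18 for CYP82C4) and with no mean-variance trend (0.0875, 0.11 and 0.117).
FRO3, a mitochondrial ferric reductase, rose from 28.1 and 28.9 to 39.2 and 38.2 CPM (adjusted p = 0.0216). BHLH038 and BHLH039, regulators that switch on the uptake genes, were low: 0.230 and 0.0940 CPM in Col-0 against 1.07 and 0.830 in fve, and 0.367 and 0.375 against 1.35 and 1.1997. Neither was called (adjusted p = 0.23 and 0.27). FER1 fell from 215 and 228 to 145 and 135 CPM (log2 -0.66, adjusted p = 0.00853). The calls of FRO3 and FER1 were lost without any 1 of the 4 Col-0 and fve libraries, with adjusted p up to 0.224 and 0.127.
Beside FER1, a list of 17 genes of iron storage, iron proteins and iron distribution, drawn up after values were seen, held 6 genes that fell and 0 that rose, with a median of -0.13. These were FER1, FSD1, NEET, YSL1, NAS3 and FRO7. The share over all genes tested was 0.77% lower and 1.12% higher. FSD1, an iron superoxide dismutase, fell from 1349.5 and 1274.5 CPM to 1051 and 1034 (adjusted p = 0.00853). NEET, an iron-sulfur protein, fell from 26.9 and 30.0 to 15.7 and 15.5 (adjusted p = 0.00359), and NAS3, which makes the iron chelator nicotianamine, from 19.4 and 14.6 to 11.5 and 7.52 (adjusted p = 0.0372). YSL1, a transporter of iron bound to nicotianamine, and FRO7, the chloroplast ferric reductase, fell by 0.46 (adjusted p = 0.0192) and 0.35 (adjusted p = 0.0133) on the log2 scale. Each of these 5 calls was lost without at least 3 of the 4 libraries, with adjusted p up to 0.073 for NEET and 0.326 for NAS3.
Root markers were read beside these genes. Of 13 root markers 2, IRT1 and NRT2.1, rose, 12 had a difference above 0 (9162 of the 19090 genes tested), and the median was 0.23. Without these 2, the other 11 summed to 124 and 145 CPM in Col-0 and to 178 and 138 in fve, groups that overlap, and limma called 0 of the 11, with 2 higher by unadjusted p. Of the 12 markers other than IRT1, both fve libraries lay above both Col-0 libraries in 6, among them the root hair genes EXPA7 and COBL9, and below both in 1, beside 22.2% and 24.6% of all genes. Of the 13, 0 lay under 0.140 CPM in every Col-0 and fve library. More root cells and more RNA per root cell cannot be told apart in whole seedlings, and the part of root material in the iron genes was not tested. NRT2.1, a high-affinity nitrate transporter of roots, stood at 2.80 and 2.63 CPM in Col-0 and at 8.49 and 4.98 in fve (log2 1.02, adjusted p = 0.0161, up to 0.165 without a library). It was the 1 of 8 nitrate response genes called, and the median of that list was -0.06.

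**Figure D3:**
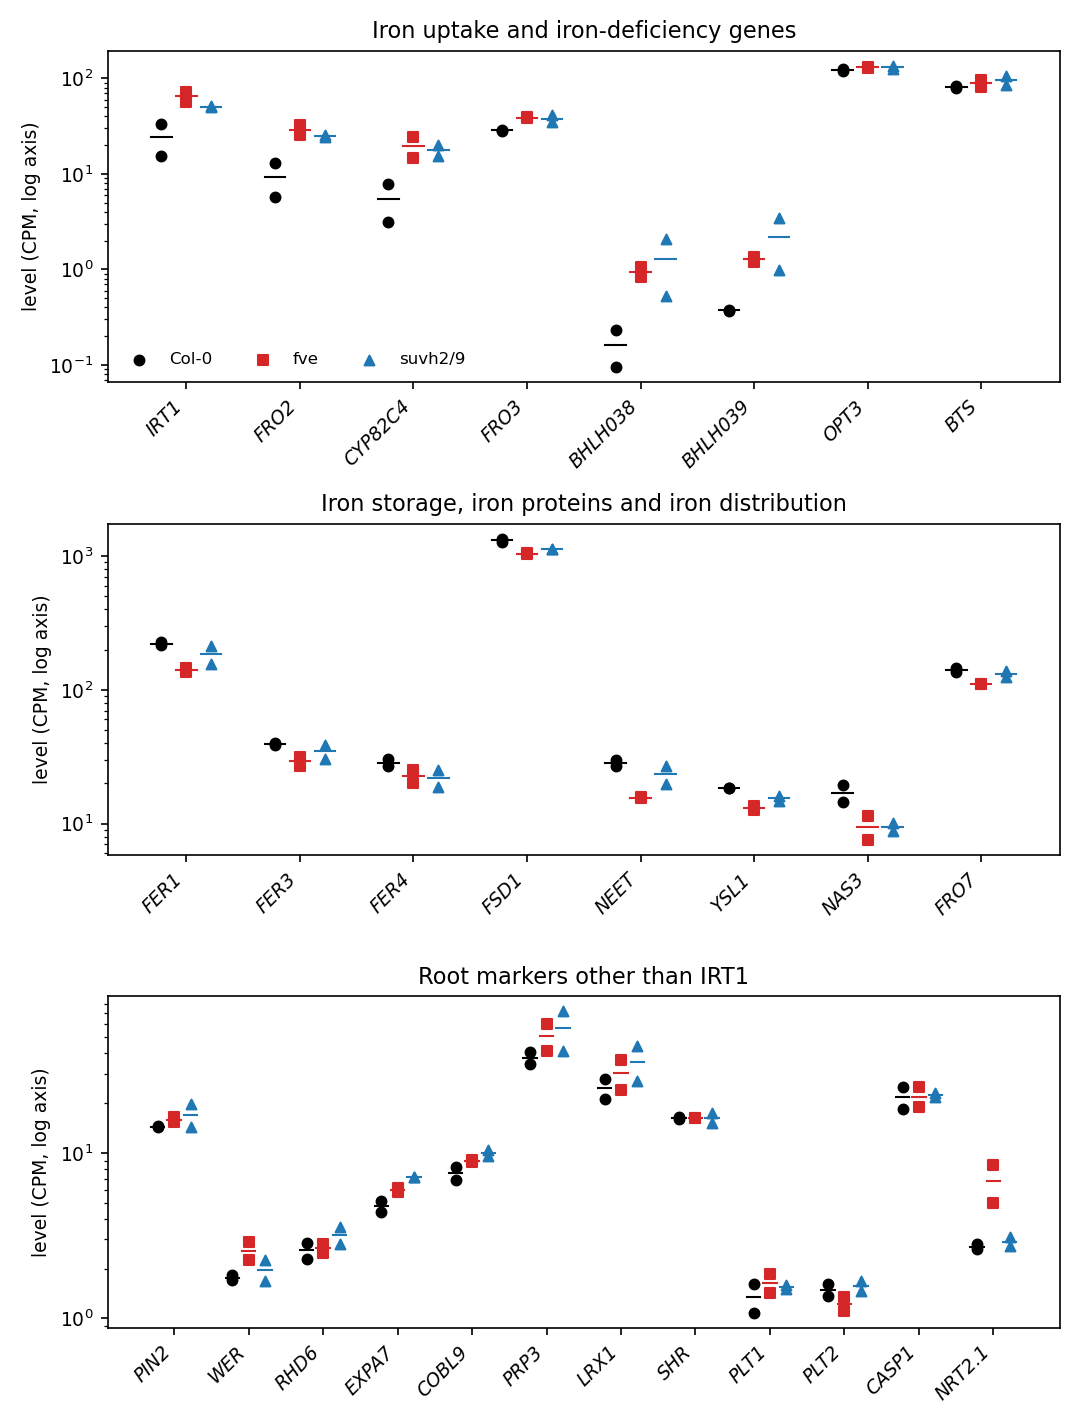
Levels in CPM on log axes in each library of Col-0 (circles), fve (squares) and suvh2/9 (triangles), with a line at each group's mean, for iron uptake and deficiency genes (top), iron storage, iron proteins and iron distribution (middle) and root markers other than IRT1 (bottom). IRT1, FRO2 and CYP82C4 lie higher in both fve libraries than in both Col-0 libraries, and FER1, FSD1 and NEET lower; of the 12 root markers, 6 lie higher in both fve libraries, 1 lies lower in both and 5 overlap.

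In a list of 16 genes of sulfate assimilation and low sulfur, also drawn up after values were seen, 5 fell and 0 rose. The median was -0.17, and over all genes tested 0.77% fell and 1.12% rose. LSU1 and SDI1, markers of low sulfur, fell from 4.31 and 5.39 to 2.55 and 1.71 CPM and from 12.9 and 11.6 to 7.93 and 5.07 (log2 -0.91 and -0.85, adjusted p = 0.0167 and 0.0433). APS1, the ATP sulfurylase that opens sulfate assimilation, stood at 598 and 615 CPM in Col-0 and at 492 and 527 in fve (adjusted p = 0.0363). APR1 and APR3, adenylylsulfate reductases of the next step, fell by 0.29 (adjusted p = 0.0188) and 0.34 (adjusted p = 0.014) on the log2 scale. All 5 calls were lost without at least 3 of the 4 libraries, with adjusted p up to 0.364. The sulfate transporters SULTR1;2 and SULTR2;1 stood at 124.5 and 106 against 127 and 107 CPM and at 113 and 112 against 118 and 115, and were not called.

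Among genes tied to glucosinolates, the sulfur-rich defence compounds of the cabbage family, ESM1 and several lectin genes rose and MAM3 fell. The genes of this paragraph other than the glucosinolate list were chosen after their values were seen. ESM1, which steers glucosinolate breakdown towards isothiocyanates, was among the most abundant transcripts that changed: it stood at 815 and 782 CPM in Col-0, 1512 and 1623 in fve, and 2450 and 2401 in suvh2/9 (fve against Col-0, log2 0.97, SE 0.0583, adjusted p = 7.9e-06). Of 28 tested jacalin-type lectins, the family of the myrosinase-binding proteins, 6 rose and 0 fell. A difference above 0 was found in 22 of the 28 (median 0.28), beside 9162 of the 19090 genes tested. Over all genes tested 1.12% rose and 0.77% fell. MBP1, a myrosinase-binding protein, rose from 7.47 and 7.31 to 20.7 and 15.7 CPM (log2 1.18, adjusted p = 0.000756). AT1G52000 rose from 53.4 and 57.3 to 105 and 98.7 (log2 0.86, adjusted p = 0.000108), whereas in suvh2/9 it stood at 36.3 and 41.5. AT5G35940 rose from 2.66 and 2.67 to 8.02 and 7.80 (log2 1.28, adjusted p = 0.000577). The calls of ESM1, MBP1, AT1G52000 and AT5G35940 were kept without each library in turn, and that of MBP1 was lost with no filter on low values (adjusted p = 0.0551). Those of AT1G52050, AT1G52060 and AT1G52120, which lie near MBP1 on chromosome 1, were lost without any 1 of the 4 libraries.
Of the 20 glucosinolate genes, 1 fell, and 7 were lower and 1 higher at an unadjusted p below 0.05, with a median of -0.05. Over all genes tested 6.99% were lower and 7.02% higher at that p. The gene that fell was MAM3, an enzyme of side chain elongation in aliphatic glucosinolates, at 117 and 124 CPM in Col-0 and 81.9 and 87.1 in fve (log2 -0.51, adjusted p = 0.00112, up to 0.0361 without a library). TGG1, the main myrosinase gene, stood at 2626 and 2555 against 2666 and 2738 CPM and was not called.

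In chlorophyll and starch metabolism single enzymes changed. PORA and PORB, light-dependent enzymes of chlorophyll synthesis chosen after their values were seen, both rose. PORA stood at 6.92 and 7.03 CPM in Col-0 and at 17.2 and 20.6 in fve (log2 1.31, adjusted p = 6.82e-05). PORB stood at 261 and 251 against 319 and 336 (log2 0.35, adjusted p = 0.00682), a call lost without any 1 of the 4 libraries. The photosynthesis list had 0 of 23 genes called by limma, with 1 higher by unadjusted p (below 0.05) and a median of -0.00435. BAM6, a beta-amylase of starch breakdown and the 1 of 9 beta-amylases that changed, fell from 7.33 and 7.88 to 2.64 and 3.69 CPM (log2 -1.06, adjusted p = 0.00186; 0.0626 with no filter on low values). AT2G32280, which overlaps BAM6 on the other strand, was not called. The subunit genes APL3 and APL4 of ADP-glucose pyrophosphorylase, which opens starch synthesis, rose from 39.6 and 43.1 to 62.2 and 61.0 CPM (adjusted p = 0.000914) and from 15.7 and 15.3 to 22.1 and 22.7 (adjusted p = 0.0144). The call of APL4 was lost without any 1 of the 4 libraries, and APL3 was chosen after its values were seen.

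Cold-regulated genes, which FVE has been described to hold down, were not called. limma called 0 of 19, with 6 higher and 0 lower at an unadjusted p below 0.05, and the median was 0.11. Over all genes tested 7.02% were higher and 6.99% lower at that p. The genes named here were chosen after their values were seen. COR15B, a chloroplast protectant, stood at 4.35 and 4.55 CPM in Col-0 and at 9.14 and 9.88 in fve, without overlap, and at 2.63 and 7.002 in suvh2/9 (fve against Col-0, adjusted p = 0.109; 0.00039 with Col-0 and fve alone in the fit). GOLS3, a galactinol synthase, stood at 3.12 and 3.80 against 6.35 and 6.23 (adjusted p = 0.0634), and ERD10, a dehydrin, at 174 and 192 against 225 and 214 (adjusted p = 0.0573). COR15A stood at 52.8 and 54.9 against 61.7 and 75.5 (adjusted p = 0.458). CBF3, a cold regulator, stood at 0.916 and 1.27 CPM in Col-0 and at 1.86 and 1.38 in fve.
The other lists had 0 genes called by limma. Their counts at an unadjusted p below 0.05 were 1 higher and 3 lower of 20 in the circadian clock, 1 and 3 of 13 in salicylic acid and immune response, 1 and 1 of 11 in jasmonate response, 1 and 1 of 11 in anthocyanin and flavonoid synthesis, 1 and 0 of 6 in heat shock, 0 and 0 of 12 in touch and wound response, 3 and 1 of 16 in shade avoidance and auxin response, 1 and 0 of 14 in cell division and 1 and 0 of 9 among the reference genes. Their medians lay between -0.01 and 0.14. HSFA6A, a heat shock factor outside the heat shock list, rose from 1.05 and 2.48 to 5.89 and 7.99 CPM (log2 1.56, adjusted p = 0.0217), which did not hold when Col-0 replicate 1 or either fve library was dropped (up to 0.236).

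**Figure D4:**
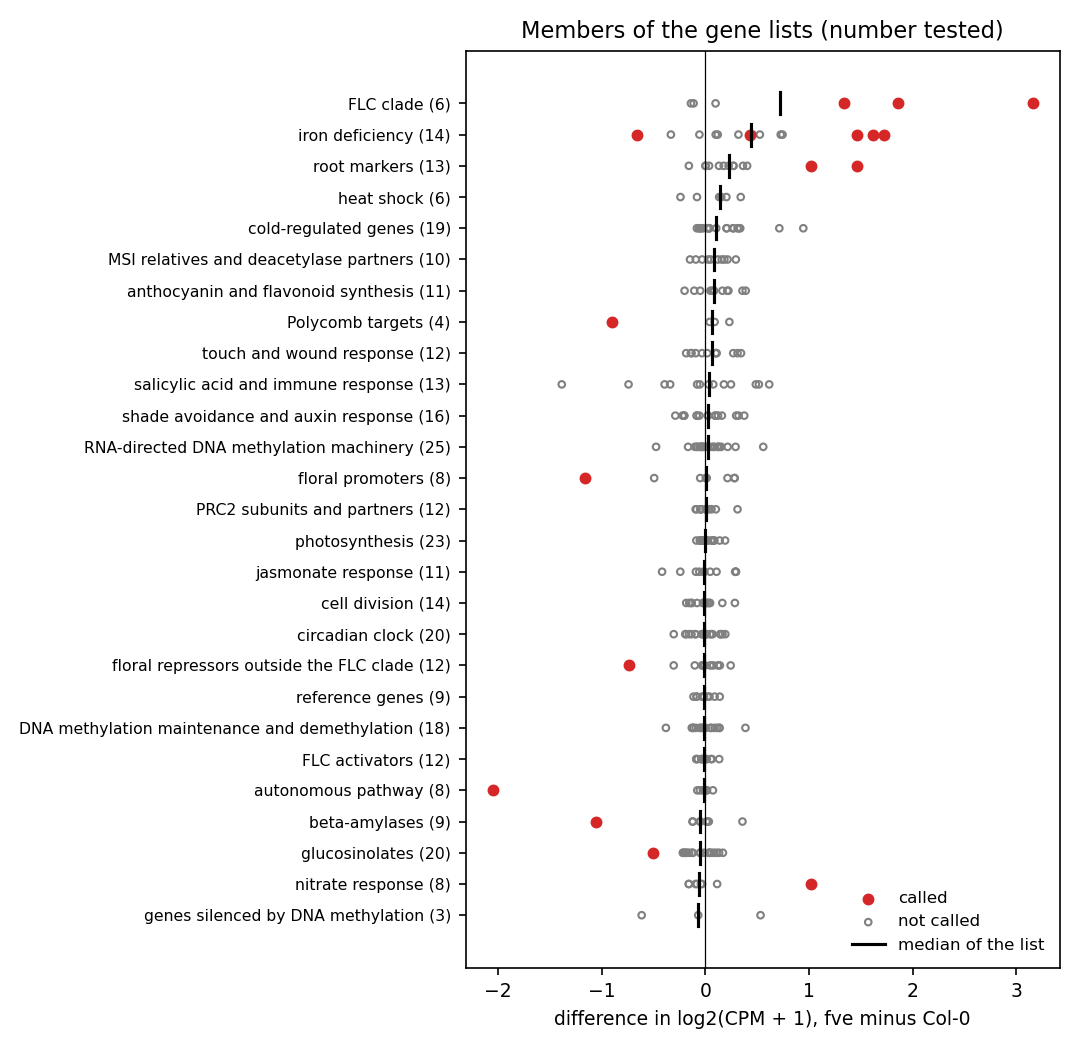
Each point is a tested member of a gene list, placed by its difference in log2(CPM + 1), fve minus Col-0, with 1 row for each list that had at least 3 tested members, sorted by the median (black line). Filled red points are called genes; the FLC clade (median 0.72) and the iron-deficiency genes (0.44) stand at the top, and in most other rows the points lie around 0.

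Several loci that were almost silent in Col-0 were detected at 2.31 to 6.35 CPM in fve. AT2G05914, a long non-coding RNA on chromosome 2, stood at 0.228 and 0.562 CPM in Col-0, 6.35 and 6.05 in fve, and 2.40 and 3.57 in suvh2/9 (fve against Col-0, log2 2.38, adjusted p = 3.92e-05). AT1G06963, a long non-coding RNA, was under 0.140 CPM in both Col-0 libraries and at 3.25 and 2.31 in fve (log2 1.87, adjusted p = 0.000269). AT1G24570, a putative membrane protein, was under 0.140 CPM in both Col-0 libraries and at 3.66 and 3.09 in fve (log2 2.03, adjusted p = 7.63e-05). AT2G01008, which starts at base 1025 of chromosome 2, stood at 0.137 and 0.141 CPM in Col-0 and at 3.06 and 2.68 in fve (log2 1.76, adjusted p = 0.000212). In suvh2/9 AT1G06963, AT1G24570 and AT2G01008 lay at 0.0941 to 0.235 CPM. These 3, unlike AT2G05914, were chosen after their values were seen. AT2G05914 passed the filter each time and its call was kept. The other 3 were dropped by the filter without either fve library. With the genes held their calls were kept, but these genes passed the filter only through fve, so this is no independent support.
Of 206 tested non-coding RNA genes 12 rose and 3 fell, 7.28% of those tested, beside 202 higher and 144 lower of 18844 protein-coding genes, 1.84%. The difference between these shares was not tested. Of 3701 non-coding rows 206 passed the filter, and of 27432 protein-coding rows 18844. Genes nearly silent in Col-0 could enter only through fve or suvh2/9, so part of the share that rose is set by the filter. The median level of the non-coding genes was 2.35 CPM in Col-0, beside 17.1 CPM for protein-coding genes. AT4G36648, one of the more abundant, stood at 68.1 and 70.9 CPM in Col-0 and at 121 and 120 in fve (log2 0.79, adjusted p = 2.34e-05). AT1G67105 stood at 15.3 and 16.5 against 35.02 and 36.6 in fve, and at 317 and 359 in suvh2/9 (fve against Col-0, log2 1.12, adjusted p = 1.06e-05). Both were chosen after their values were seen, as were the classes that follow.
By product text 10 of 157 tested F-box genes rose and 0 fell, and 6 of 75 Cysteine/Histidine-rich C1 domain genes rose and 0 fell. Their median levels in Col-0 were 6.18 and 2.25 CPM. Over all genes tested 1.12% rose and 0.77% fell. The share that rose was 2.27% between 1 and 5 CPM and 0.962% between 5 and 25 CPM. Of 308 ribosomal protein genes, at a median of 76.2 CPM, 2 rose and 0 fell.

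Of protein-coding genes with at least 5 CPM, AT1G77960 and AT4G07995 rose most after FLC. AT1G77960 stood at 3.48 and 4.36 CPM in Col-0 and at 19.5 and 17.44 in fve (log2 1.99, adjusted p = 1e-05). It overlaps AGL67, a MADS-box gene on the other strand that was at 0 in these libraries. AT4G07995 stood at 4.36 and 3.84 in Col-0, 16.4 and 16.0 in fve, and 85.0 and 101 in suvh2/9 (fve against Col-0, log2 1.75, adjusted p = 3.59e-06). AT1G29560, a zinc finger gene, stood at 3.21 and 4.22 against 14.1 and 14.03 (log2 1.69, adjusted p = 6.76e-05). The calls of another pair of strong rises were lost when libraries were left out: AT1G13609, a defensin-like gene, rose by 1.62 on the log2 scale (adjusted p = 0.0194, up to 0.234) and AT3G28270 by 1.36 (adjusted p = 0.0261, up to 0.283).

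The deepest fall was that of AT1G64795 (chromosome 1, 24082579 to 24082848, plus strand), a gene of 270 bases without a described function. It stood at 9.86 and 7.97 CPM in Col-0 and at 0.139 and 0 in fve (log2 -3.21, adjusted p = 7.95e-07). It lies wholly within ILA on the opposite strand, which stood at 160.2 and 157.5 CPM in Col-0 and 176 and 163 in fve and was not called; without knowing the strand used in counting, reads of the 2 cannot be told apart. In suvh2/9 AT1G64795 stood at 8.35 and 6.87 CPM. In the second table it stood at 4.15 and 5.87 in Col-0 and at most at 0.0523 in each library of pdp1/2/3, rrm1 and pdp1/2/3;rrm1.
The other genes with the lowest differences among those with at least 5 CPM that are named here fell to between 49.0% and 54.1% of their Col-0 mean. AT4G31310 fell from 34.1 and 29.6 to 14.6 and 18.3 CPM, AT1G55675 from 11.5 and 11.6 to 5.61 and 5.82, and AT4G23680 from 61.4 and 54.6 to 35.1 and 26.5 (adjusted p = 0.000933, 0.000667 and 0.00164). UMAMIT31, of an amino acid transporter family, fell from 12.1 and 14.1 to 7.14 and 6.74 (adjusted p = 0.00222). These calls were kept without each library in turn, and with no filter on low values those of AT4G31310, AT4G23680 and UMAMIT31 were lost (adjusted p = 0.0574, 0.0813 and 0.0587). Those of PYD4, an enzyme of pyrimidine breakdown (39.2 and 31.7 to 21.1 and 16.8 CPM), MSRB4, a methionine sulfoxide reductase (8.34 and 8.77 to 4.73 and 4.52), and AT1G75945 (9.62 and 11.9991 to 3.99 and 6.60) were lost without 2 or 3 of the 4 libraries, with adjusted p up to 0.174, 0.0625 and 0.223.

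Some of the genes that changed are neighbours. Of 19085 pairs of tested genes next to each other, 11 were called in the same direction and 4 in opposite directions, and 29 called genes, 8.03% of the 361, were in such a pair. Over all genes tested 1.89% were called, and most have a neighbour on either side, so some such pairs arise at that share alone. How many was not worked out, and the pairs are described with no test. AT5G35480 and MRU1 stand head to head on chromosome 5 with 220 bases between them. AT5G35480 rose from 4.72 and 3.61 to 16.0 and 15.9 CPM (log2 1.72, adjusted p = 1e-05), and MRU1, named for its response in a methionine-overaccumulating mutant, from 6.84 and 4.74 to 19.5 and 18.4 (log2 1.57, adjusted p = 6.82e-05). In suvh2/9 they stood at 31.1 and 29.9 and at 36.2 and 34.7 CPM.
UBC11 and UBC12, ubiquitin-conjugating enzymes in tandem on chromosome 3, changed in opposite directions. UBC11, the upstream gene, stood at 26.4 and 23.8 CPM in Col-0 and at 13.7 and 13.0 in fve (log2 -0.86, adjusted p = 0.000277). UBC12, which starts 224 bases after its end, stood at 0.230 and 0.0940 in Col-0 and at 3.39 and 2.68 in fve (log2 1.79, adjusted p = 0.000277). UBC12 was chosen after its values were seen. In suvh2/9 UBC11 stood at 22.7 and 24.1 CPM and UBC12 at 0.0938 and 0.0472. The calls of AT5G35480, MRU1 and UBC11 were kept. UBC12 was dropped by the filter without either fve library. With the genes held its call was kept, but UBC12 passed the filter only through fve, so this is no independent support.
The stretches between these genes are shown whole, since each is all that lies between a pair of neighbours that were both called. They are from RefSeq TAIR10.1, on the plus strand, and capitals mark the motif CANNTG, its own reverse complement, which 56.2% of the windows of 250 bases before tested genes hold.
AT5G35480 to MRU1, chr5:13689597-13689816: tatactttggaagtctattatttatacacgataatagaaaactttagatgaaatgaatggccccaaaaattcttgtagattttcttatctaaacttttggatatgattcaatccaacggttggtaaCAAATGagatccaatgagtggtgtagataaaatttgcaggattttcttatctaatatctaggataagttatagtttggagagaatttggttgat
UBC11 to UBC12, chr3:2642920-2643143: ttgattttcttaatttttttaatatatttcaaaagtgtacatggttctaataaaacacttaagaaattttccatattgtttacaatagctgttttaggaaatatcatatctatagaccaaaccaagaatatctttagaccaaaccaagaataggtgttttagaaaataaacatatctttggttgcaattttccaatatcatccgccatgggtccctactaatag
The first holds 1 match and the second holds 0. Among the 250-base windows of called genes, CANNTG was found in 57.5% of those that rose and 55.1% of those that fell, close to the share over all windows.
The other opposite pairs were AT3G45430 and AT3G45440, lectin-type receptor kinases (3.31 to 0.902 and 1.203 to 2.98 CPM in the means), AT3G13020 and AT3G13030, of the hAT transposon family (1.57 to 3.45 and 19.1 to 13.99), and AT1G76720 with COG0212. Of these calls each was lost without at least 1 of the libraries. Of the pairs that rose together, AT4G01920 and AT4G01930, of the C1 domain family, went from 3.18 to 8.24 and from 0.371 to 2.61 CPM in the means. The call of AT4G01920 was kept but was lost with no filter on low values (adjusted p = 0.0587). AT4G01930 was dropped by the filter without either fve library. With the genes held its call was kept, but AT4G01930 passed the filter only through fve, so this is no independent support.

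Around FVE itself, 14 of the 369 genes tested within 1000000 bases on either side were called, 9 higher and 5 lower, 3.79% beside 1.89% over all genes. The labels do not say how the mutation was made or what flanks it. MLO7, of a membrane protein family known from mildew resistance and root growth, stood at 1.51 and 1.83 CPM in Col-0 and at 5.06 and 6.14 in fve (log2 1.30, adjusted p = 0.000933). AT2G20870, a cell wall protein precursor, stood at 2.30 and 1.31 against 7.004 and 6.78 (log2 1.52, adjusted p = 0.000631). GUT15, a non-coding RNA, rose from 96.4 and 105 to 135 and 136 CPM (adjusted p = 0.00278), lost without Col-0 replicate 1 or fve replicate 2. With HIS1-3 and APL4, described above, the others that rose were AT2G06995, NADP-ME1, AT2G21260 and AT2G21850, and those that fell were AT2G17340, AT2G19970, AT2G21630, AT2G22122 and SEP2, here the stress enhanced protein and not the floral gene. The calls of MLO7, AT2G20870 and HIS1-3 were kept without each library in turn and the other 11 were not.

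The triple mutant pdp1/2/3 was set beside fve because PDP proteins are known to bind FVE, and because it has Col-0 libraries of its own. Of 19241 genes tested there, 18.3% were called, 10.8% higher and 7.42% lower. Of the 345 fve calls tested in both tables, 135 were called the same way in pdp1/2/3, which is 39.1% of these and 3.84% of the 3513 calls of pdp1/2/3. Of the 198 that rose in fve, 75 rose in pdp1/2/3, 37.9% beside 10.7% of all genes tested in both tables. Of the 147 that fell, 60 fell, 40.8% beside 7.49%. In all 15 were called in opposite directions and 195 were not called in pdp1/2/3. The overlap was not tested, and levels of the tables were normalised separately. Leaving out Col-0 replicate 4 of the second table lowered the shared number to 91, and leaving out a Col-0 or fve library of the first table lowered it to between 42 and 59. The other mutants of the second table also shared calls with fve. In rrm1 34 of the 198 rose (17.2% beside 2.64%) and 9 of the 147 fell (6.12% beside 1.23%). In pdp1/2/3;rrm1 103 rose (52.0% beside 10.4%) and 66 fell (44.9% beside 7.16%). These overlaps were not tested either.
MAF5 rose in fve and in pdp1/2/3, in pdp1/2/3 from 0.564 and 0.635 CPM in its Col-0 to 7.81 and 7.82 (log2 2.46, adjusted p = 1.24e-06). In rrm1 MAF5 stood at 9.20 and 7.07 CPM and FLC at 0.550 and 0.410. FLC stood at 0.411 and 0.318 in that Col-0 and at 2.99 and 5.23 in pdp1/2/3 (log2 1.87, adjusted p = 4.32e-05). SOC1 stood at 64.0 and 62.4 against 38.1 and 33.0 CPM (log2 -0.82, adjusted p = 5.68e-05). AT1G29560, BAM6, AT4G31310 and PORA also moved the same way, by 1.59, -1.18, -0.94 and 1.32 on the log2 scale. UBC11 (0.10, adjusted p = 0.502), IRT1 (0.44, adjusted p = 0.305) and ESM1 (-0.10, adjusted p = 0.386) were not called in pdp1/2/3. LSU1 was one of the 15 that went opposite ways, at 6.57 and 6.09 CPM in that Col-0 and 11.7 and 11.4 in pdp1/2/3 (log2 0.78, adjusted p = 0.000642). ROS1, not called in fve, was higher in pdp1/2/3, at 78.1 and 85.7 against 47.2 and 49.1 CPM (log2 0.75, adjusted p = 5.64e-05).

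**Figure D5:**
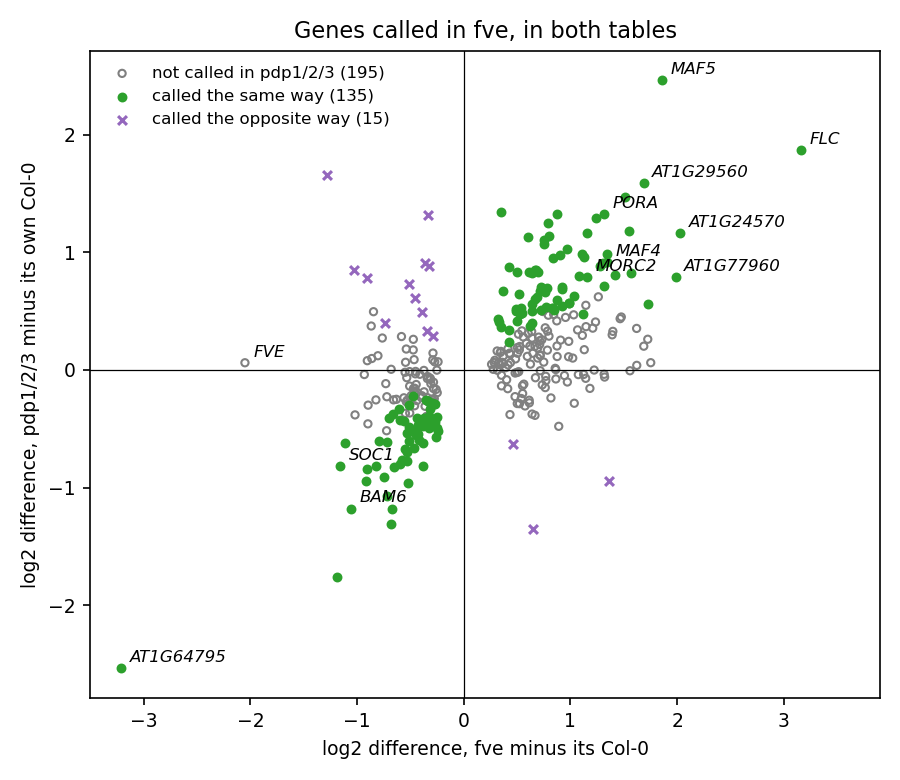
Each point is 1 of the 345 genes called in fve and tested in both tables, with the log2 difference of fve minus its Col-0 on the x axis and of pdp1/2/3 minus its own Col-0 on the y axis. Green points (135) were called the same way in pdp1/2/3, purple crosses (15) the opposite way and open circles (195) were not called there; FLC, MAF5 and AT1G64795 lie far out in the same direction in both.

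In suvh2/9, which shares its Col-0 libraries with fve, 109 of the 19090 genes were called (0.571%, with 0.388% higher and 0.183% lower). Values are given for a selection of the genes described above, without a count of shared calls, since the comparisons rest on the same Col-0 libraries. Called against Col-0 in the direction of fve were PYD4 (log2 -0.89, adjusted p = 0.0196), MSRB4 (-0.62, 0.0281) and ATC (-0.49, 0.04995). So were MET2 (1.49, 0.000496), AT1G13609 (2.27, 0.00386) and MBP1 (0.91, 0.00658), and these are not all. AT1G52000 was called the opposite way (adjusted p = 0.00711), and FLC, MAF4, MAF5 and SOC1 were not called. The part of the shared Col-0 pair in such changes was not tested. FLC stood at 0.657 and 0.706 CPM in suvh2/9, MAF4 at 0.939 and 0.941, MAF5 at 0.188 and 0.423 and SOC1 at 44.96 and 50.9. FRO2 stood at 24.3 and 25.5 CPM, IRT1 at 49.7 and 51.5 and CYP82C4 at 15.3 and 20.2, all near the fve libraries. Compared directly, fve and suvh2/9 differed in 2.06% of genes, 1.22% higher in fve and 0.843% lower. Among these were FLC (log2 2.86, fve minus suvh2/9, adjusted p = 3.63e-07), MAF5 (1.91, adjusted p = 0.000139), SOC1 (-1.46, adjusted p = 0.000139) and ROS1 (3.05, adjusted p = 3.95e-09). They were not called apart in FRO2 (0.20, adjusted p = 0.781), IRT1 (0.34, adjusted p = 0.577) or CYP82C4 (0.10, adjusted p = 0.925). AT5G35480 and MRU1 were lower in fve than in suvh2/9 (-0.89 and -0.87, adjusted p = 0.00113 and 0.00344), as was ESM1 (-0.63, adjusted p = 0.000148).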

How the data were processed

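Single-end RNA-seq reads of 50 nt were taken from seedlings. Per the submitters' processing notes, HISAT2, featureCounts, edgeR and the TAIR10 build were used, without versions or roles. The authors deposited a normalised signal per gene and library, in 2 tables; between 0.5 and 10 at least 99.9% of the values of the first table lay within 0.2 of a whole number, and whole reads could not be recovered. The sources used here give neither strand nor library kit. Values were scaled to CPM by the mean total of their table (21485907 and 19222451). A gene entered the tests when 2 or more libraries reached 1 CPM. limma 3.58.1 was run under R 4.3.3 (lmFit, eBayes with trend) on log2(CPM + 1). There was 1 fit over the 3 groups of the first table (residual degrees of freedom 3, prior 8.50) and 1 over the second (4 and 7.82). The code was also run on simulated counts with known changes and the same spread setting for every gene. That run does not measure the error rate in these libraries, whose spread differs between genes. All 32548 identifiers matched TAIR10.1, a build of RefSeq that gave names, coordinates and sequences; the files hold no coordinates.

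The genes, the 28 lists and the comparisons were chosen with earlier results of these data known, and 5 more lists or classes (iron storage, sulfur, the family of FT, protochlorophyllide oxidoreductases, jacalin-type lectins) after values were seen. The rule for named genes took FVE, the FLC clade, SOC1, FT, ROS1, SDC, FWA and QQS, the top 15 and bottom 15 calls by difference among those with a group mean of at least 5 CPM and groups that do not overlap, from each list the 4 calls of smallest p at most, and calls within 1000000 bases of FVE. Uncalled list members other than these were chosen after their values were seen. Alternatives were other pseudocounts, filters, scalings and groups in the fit, no trend, a replicate block and each library left out, with the filter applied anew and, added after seeing the data, with the tested genes held.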

Additional observations from a re-analysis of the deposited data

How the results depend on the processing

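The 361 calls (214 higher, 147 lower, 116 with CPM at least 2-fold apart, 135 called the same way in pdp1/2/3) stayed within 1.5 times under pseudocounts of 0.5 and 0.1 and under both other scalings; median-of-ratios scaling kept all 361 and scaling by each library's own total 356. With no filter on low values they were 125 (97, 28, 83 and 47), and 105 of these were among the 361. A filter of at least 5 CPM, which leaves 15250 genes, gave 228 (114, 114, 42 and 95). No mean-variance trend gave 213 (159, 54, 113 and 78). Only the groups compared in the fit gave 659 (370, 289, 139 and 209). Leaving out 1 library of the first table gave 100 to 666 calls (57 to 374 higher, 28 to 293 lower, 51 to 142 at least 2-fold apart, 42 to 216 shared with pdp1/2/3). Leaving out 1 Col-0 or pdp1/2/3 library of the second table, chosen after seeing the data, gave 91 to 134 shared, and leaving out replicate 1 of rrm1 and of pdp1/2/3;rrm1, whose values were least often near whole numbers, gave 132. The cause of these shifts was not tested, beside the smaller number of samples or genes.

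Same-numbered replicates did not deviate together in every pair of groups (r = 0.00554 between Col-0 and fve, 0.144 between Col-0 and suvh2/9, 0.197 between fve and suvh2/9), so the numbers were not taken to pair the libraries. With the replicate block 643 genes were called (343 higher, 300 lower, 136 at least 2-fold apart, 219 shared with pdp1/2/3), all 361 among them. No named gene that was called changed sign under any alternative run in which it was fitted. Of the 78 that were called, 44 were lost with no filter on low values, 31 with no trend and 30 to 36 without a Col-0 or fve library, where 8 of the 78 were not fitted without an fve library. With the tested genes held, added after seeing the data, 29 to 37 were lost and the calls over all genes numbered 110 to 648 (78 to 363 higher, 28 to 285 lower, 67 to 141 at least 2-fold apart, 45 to 212 shared with pdp1/2/3). With 2 libraries a group, differences of genes near 1 CPM rest on few counts.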
